A study of Homo sapiens with 3 samples.

Results

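MCM2, MCM3, MCM4, MCM5, MCM6 and MCM7 are the genes of the MCM helicase. CDT1 and GMNN belong to its loading control, and MCM10 to its activation. These 9 genes were taken by name from 19974 protein-coding genes of the RefSeq annotation of GRCh38.p14, and chromatin loops were assigned to them by position. The loops came from Hi-C, in which sites that lie close together in crosslinked nuclei are ligated and sequenced. Libraries came from 3 samples of HCT116, a human colorectal carcinoma line, all of them p53-/-. The wild-type sample was the parental line, the ORC2 deletion sample was a single clone edited with CRISPR/Cas9, and the ORC2 rescue sample was a clone selected after ORC2, with its own UTRs, was returned on the vector pLHCXORC2. With 1 library in each group and 1 clone in each edited group, clone and genotype cannot be told apart, and no test between the genotypes was possible.

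The MCM2 to MCM7 proteins form a ring that is the core of the replicative DNA helicase. In G1 phase the origin recognition complex and CDC6, together with CDT1, load this ring onto DNA in an inactive form, a step called licensing. Geminin, the product of GMNN, binds CDT1 and blocks further loading after replication has begun, and MCM10 takes part when the loaded helicase is switched on. The effect of ORC2 on chromosome structure is the question named in the series, and ORC2 belongs to the complex that recruits these proteins.

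The authors' deposited table gave a left position, a right position and a class for each of 279618 loops with a readable class. The median length was 234 kb, the quartiles were 133 and 375 kb, and the extremes were 6.28 kb and 1.99 Mb. Of these loops 5493 (1.96%) were classed as conserved gain and 548 (0.196%) as conserved lost, called gained and lost here. The other 273577 were classed as not conserved. Neither the libraries that a gain or loss refers to, nor what conserved means, nor the sequencing depth is stated, so no class is read as a change in ORC2-deleted cells, and not conserved is not read as unchanged. The list holds no value per library, so no error between libraries can be given.

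An end was taken to be the 5 kb inside a listed position, and a loop was assigned to a gene when an end overlapped the gene body. A loop spanned a gene when both of its ends lay outside the body, on opposite sides. By these rules 5 of the 9 genes carried loop ends, namely MCM3, MCM5, MCM6, MCM7 and CDT1, with 135 distinct loops between them. The other 4 genes, MCM2, MCM4, MCM10 and GMNN, had neither an end nor a spanning loop. Of all protein-coding genes 49.6% had a listed end and 36.5% had neither, so the 5 and 4 of 9 found here are near the background. Within the helicase ring itself 4 of the 6 subunit genes had ends, and these held 106 of the 135 loops.

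**Figure D1:**
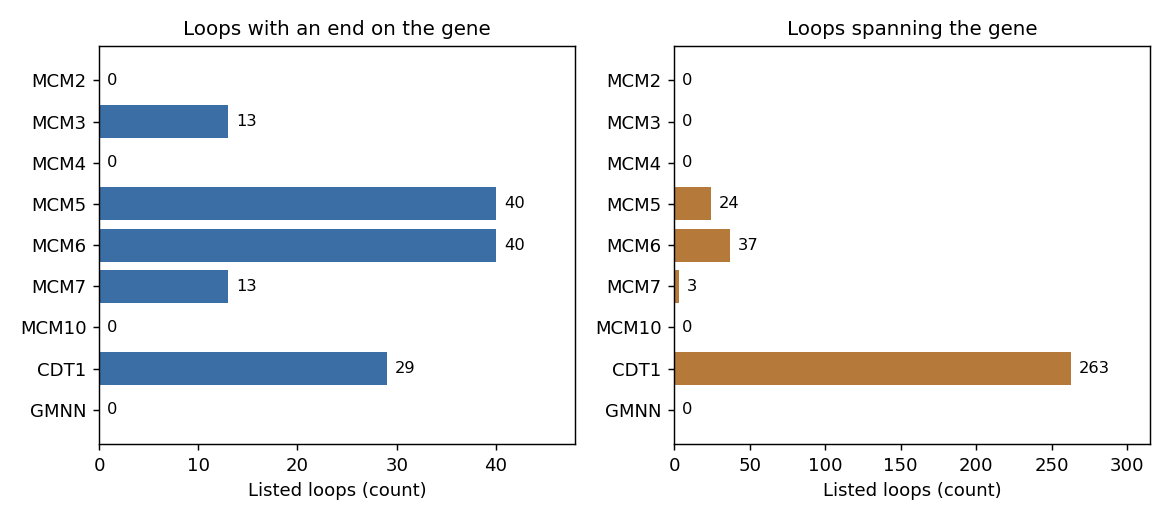
Number of listed loops with an end on each of the 9 genes (left panel) and number spanning each gene (right panel). Bars start at 0 and are counts from a single list, without error. MCM5 and MCM6 carried 40 ends each, and CDT1 was spanned by 263 loops, while MCM2, MCM4, MCM10 and GMNN were at 0 in both panels.

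No loop end on these genes was gained or lost in the authors' deposited table. All 135 loops were classed as not conserved, and a count of 0 in 135 is compatible with a share as high as 2.22% (3 counts of the total), taking loops as independent. The shares over the whole list would give 2.65 gained and 0.265 lost loops, so gained loops at that share were not detectable. Counted by gene, 0 of 5 had a gained end and 0 of 5 a lost end. Of the 9909 protein-coding genes with a listed end, 12.7% had a gained and 1.85% a lost one. Among 3159 protein-coding genes with 13 to 40 listed loops, the range of the 5 genes here, these shares were 12.2% and 1.55%, at which 0 of 5 is not distinguishable from the background.

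The same held for spanning loops. MCM5, MCM6, MCM7 and CDT1, 4 of the 9 genes against 46.7% of protein-coding genes, were spanned by 327 loops, all not conserved, and CDT1 alone accounted for 80.4% of them. Of spanned protein-coding genes 18.0% were spanned by a gained loop and 2.53% by a lost one, and none of these 4 was. The limit from 0 of 327 is 0.917%, below the 1.96% of the list, but neighbouring loops are not independent. The spanning loops fell into 3 groups of neighbours at MCM5, 1 at MCM6, 1 at MCM7 and 5 at CDT1, where loops were joined when both ends lay within 10 kb, so the limit is too tight.

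Short stretches are shown for 4 genes with listed loop ends over a start site. Within their promoters the stretches were chosen by the motif match described below. RefSeq promoters, from 250 bases before to 50 bases after a start, were matched for 7 of the 9 genes (10 promoters, build GRCh38.p14), the exceptions being MCM4 and MCM5. Loop ends covered the start of CDT1 (9 loops), the first start of MCM7 (5 loops), the start of MCM6 (5 loops) and that of MCM3 (3 loops). Each stretch is written 5′ to 3′ on the gene's own strand, and capitals mark a match on either strand to TTTGGCGC, TTTCCCGC, TTTCGCGC or TTTGCCGC, the letters of the binding motif of E2F, the factor family known for activating replication genes at the entry into S phase.
CDT1, chr16:88803743-88803772, plus strand: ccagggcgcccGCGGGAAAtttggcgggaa
MCM3, chr6:52284728-52284757, minus strand: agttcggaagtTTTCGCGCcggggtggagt
MCM6, chr2:135876513-135876542, minus strand: ttggtcaggTTTGGCGCGAAAtctccagct
MCM7, chr7:100101388-100101417, minus strand: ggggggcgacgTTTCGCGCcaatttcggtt
In the MCM6 stretch TTTGGCGC on the gene's strand and TTTCGCGC on the other strand overlap. A match to at least 1 of these motifs was present in 6 of the 7 genes (6 of 10 promoters), against 3.31% of the 35116 promoters in the RefSeq table. MCM2 and GMNN, which had no listed loop, were among the 6, and MCM10 was the gene without a match. MCM7 had further starts at 100100529 (7 loops) and 100100754 (5 loops), whose promoters held no match and are not shown. Further matching stretches of MCM3, MCM6 and MCM7 are not shown either. The core of the motif of CTCF, a factor known for anchoring loops, was found on neither strand in the 10 promoters and in 0.53% of all promoters. A match is only a match of letters in this window.

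MCM6, on chromosome 2 (135839626 to 135876443), had the longest-range loops of the ring genes. Its 40 loops measured 492 to 553 kb with a median of 526 kb, longer than 89.4% of the list. All 40 had their left end on MCM6, at 9 distinct positions that together covered the whole body. Their right ends lay at 7 positions in a window of 34.1 kb (136362326 to 136396455) that began 486 kb beyond MCM6. That window held no protein-coding gene and 1 other annotated gene, the 7SK pseudogene RN7SKP141, which lay under the far end of 8 of the 40 loops. Each position on MCM6 had 2 to 6 loops.

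MCM6 did not hold this distant window alone. In all 147 listed loops had a right end there, of which 40 had the left end at MCM6 and 34 at LCT, the lactase gene. The 37 loops that spanned MCM6 were 544 to 595 kb long, and all 37 had an end at LCT. Among the 147 loops 1 was gained and 0 were lost.

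MCM5, on chromosome 22 (35400140 to 35455031), also had 40 loops, but these were 136 to 211 kb long with a median of 174 kb. All had the left end on MCM5, at 9 positions, from 13.1 kb after the low-coordinate edge of the body onward, and 76.1% of the body lay under an end. The position with most loops, 9, was 17.5 kb from that edge, and the last position, at 50.5 kb, had 1. The far ends lay at 9 positions in a window of 51.4 kb that began 118 kb beyond the gene. A window runs from the lowest to the highest far end, and within this one the loops formed 2 separate regions. MB, the gene of the oxygen carrier myoglobin, was under the far end of 21 loops, and the uncharacterised locus LOC107985590 under 18. Of 88 listed loops with a right end in that window, MCM5 held 40 and TOM1, an endosomal trafficking gene, held 8, and none was gained or lost. The 24 loops spanning MCM5 were 141 to 281 kb long, with ends at MB in 12 and at TOM1 in 10.

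MCM3, on chromosome 6 (52264015 to 52284742), had 13 loops of 111 to 135 kb, with a median of 121 kb. Each joined MCM3 to PAQR8, which encodes a membrane progestin receptor, and no loop spanned MCM3. The left ends took 4 positions, the most used (5 loops) 15.0 kb from the low-coordinate edge, and covered 74.0% of the body. MCM3 lies on the minus strand, so its start is at the high-coordinate edge, where 3 loops lay over it. The partner window of 23.8 kb held 22 listed right ends, of which 13 belonged to MCM3 and 1 to a gained loop. This gained loop, 97.3 kb long, started 17.9 kb beyond MCM3, outside any protein-coding gene, and ended at the same position in PAQR8 as 4 of the MCM3 loops.

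**Figure D2:**
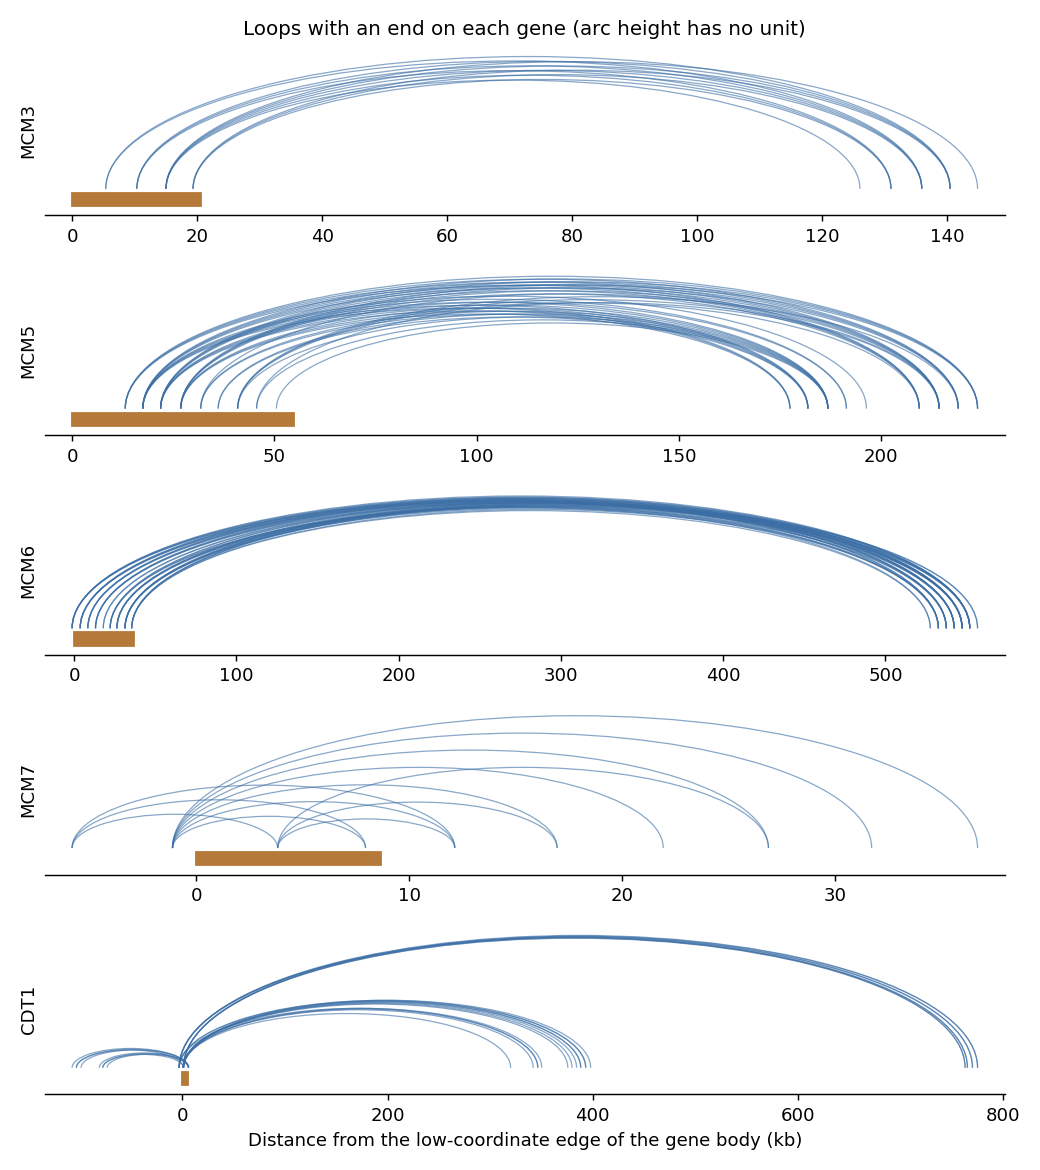
Loops with an end on each of the 5 genes, drawn as arcs between the listed positions against distance from the low-coordinate edge of the gene body in kb. The bar is the gene body, each panel has its own scale, and arc height has no unit. All loops at MCM3, MCM5 and MCM6 run to the high-coordinate side, whereas MCM7 and CDT1 have loops to both sides. The loops form 1 region each at MCM3 and MCM6 and 2 at MCM5.

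MCM7, on chromosome 7 (100092728 to 100101397), differed in scale. Its 13 loops were 8.32 to 37.8 kb long with a median of 18.0 kb, and 1.56% of the list was shorter than that median. Loops of at most 50 kb made up 8.0% of the list and 13 of 13 here. In 10 loops the left end and in 6 the right end lay on MCM7, and in 3 of these both did. Partners were the flanking genes. TAF6, a subunit of the general transcription factor TFIID, was at the other end of 7 loops, COPS6, a subunit of the COP9 signalosome, of 5, AP4M1, an adaptor complex subunit, of 4, CNPY4 of 2 and MBLAC1 of 1. Of the 16 ends on MCM7, 14 also overlapped another protein-coding gene, so in this crowded stretch the loops cannot be assigned to MCM7 alone. Its 3 spanning loops, of 22.8 to 32.7 kb, each ran from COPS6 to TAF6. In 3 of the 13 loops the length was under 10 kb, so the ends read as 5 kb overlapped each other. The listed positions themselves abut, as with the right position 100096555 and the left position 100096556. By these positions the 3 loops joined stretches directly next to each other. With the listed position alone in place of 5 kb, MCM7 kept 6 loops, and when loops under 100 kb were left out it had 0.

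The body of MCM7 carries the microRNA genes MIR106B, MIR93 and MIR25, and their main mature products are shown because 8 of the 13 MCM7 loops had an end on them. They lie on the minus strand between 100093571 and 100094063, and sequences are from RefSeq (GRCh38.p14), 5′ to 3′, with the seed (bases 2 to 8) in capitals.
hsa-miR-106b-5p: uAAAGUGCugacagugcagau
hsa-miR-93-5p: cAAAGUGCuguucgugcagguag
hsa-miR-25-3p: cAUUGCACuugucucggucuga
The first and the second share the seed AAAGUGC, and the third has AUUGCAC. The loop list does not show whether these hairpins or MCM7 itself are transcribed.

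CDT1, the licensing factor, lies on chromosome 16 (88803789 to 88809258). Its body of 5.47 kb is the shortest of the 9, and it held 29 loops, 53.0 per 10 kb of body against 6.27 at MCM3 and 15.0 at MCM7. Ends of 5 kb reach a body from outside it, so this density is raised most in short genes. With the listed position alone the counts were 16 at CDT1, 6 at MCM7 and 13 at MCM3. The loops fell into 3 length groups. On the low-coordinate side 8 loops of 78.6 to 113 kb reached PIEZO1, a mechanically gated ion channel gene (4 loops), RNF166, a ubiquitin ligase gene (4 loops), and CTU2 (1 loop). On the other side 13 loops of 319 to 397 kb reached CDH15, the M-cadherin gene (7 loops), the mitochondrial acyl-CoA synthetase gene ACSF3 (5 loops) and SLC22A31 (3 loops). A further 8 loops of 762 to 778 kb reached the ribosomal protein gene RPL13 (4 loops) and CPNE7 (2 loops). No loop at the other genes here was as long as this last group. CDT1 did not hold these distant stretches alone. Its far ends on the high-coordinate side lay within 460 kb, a stretch that includes the gap between the middle and the longest group. In it 609 listed loops had a right end, 3 of them gained. The gained ones ended at 89498349 or 89552835, inside that gap, which ran from 89201831 to 89566905 by right positions. At these positions 0 CDT1 loops ended. Of the 609, 21 had the left end at CDT1, 179 at PIEZO1 and 169 at CBFA2T3. On the low-coordinate side CDT1 held 8 of 152 listed loops, and none of the 152 was gained or lost.

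CDT1 was also the most spanned of these genes. Its 263 spanning loops were 92.0 to 583 kb long, and 97.0% of spanned protein-coding genes had fewer. The median spanned gene had 22 such loops. PIEZO1 was at an end of 180 of the 263 and CDH15 of 95. The left position at 88804751, inside CDT1, had 14 loops, and that at 88800590, before the body, had 7. The count of loops with an end on CDT1 was 16 with the listed position alone, 34 with ends of 10 kb and 46 with 5 kb added to both sides of the gene, and 20 of its 29 ends also overlapped another protein-coding gene.

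**Figure D3:**
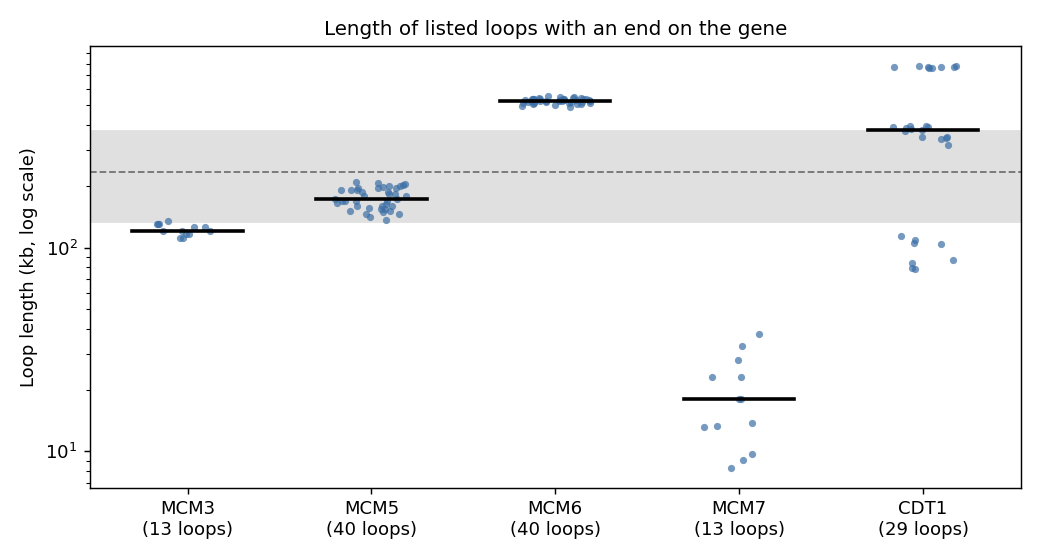
Length in kb (log axis) of every listed loop with an end on each of the 5 genes. Points are loops, black lines are medians, the dashed line is the median of the whole list (234 kb) and the band runs between its quartiles (133 and 375 kb). MCM7 lies below the band with a median of 18.0 kb, MCM6 above it with 526 kb, and CDT1 falls into 3 groups.

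Ordered by median loop length, the genes ran from MCM7 (18.0 kb) through MCM3 (121 kb), MCM5 (174 kb) and CDT1 (379 kb) to MCM6 (526 kb), a range of 29.2-fold. The loop lengths of MCM7, MCM3, MCM5 and MCM6 did not overlap between genes, while CDT1 had loops in the range of MCM3 and beyond that of MCM6. Loops at 1 gene are neighbours and not replicates. The 13 loops of MCM3, the 40 of MCM6 and the 13 of MCM7 each joined into 1 region, the 40 of MCM5 into 2 and the 29 of CDT1 into 6. On the 5 genes neighbouring positions of the same side, left or right, lay 4.13 to 4.98 kb apart. This is less than the 5 kb read as an end, so such ends overlapped under that rule. The listed positions themselves abut, as with the right position 88804750 and the left position 88804751 in CDT1. The overlap therefore comes from the 5 kb rule, and adjoining ends are not read as separate sites. The medians over all listed loops of the same chromosomes were 83.5 kb for MCM5, 209 kb for CDT1, 302 kb for MCM3, 303 kb for MCM6 and 315 kb for MCM7, so MCM5, MCM6 and CDT1 lay above and MCM3 and MCM7 below their chromosome. In number of loops, the 13 of MCM3 and MCM7 exceeded 45.3% of genes with a listed end, the 29 of CDT1 68.1% and the 40 of MCM5 and MCM6 76.6%. The median of such genes was 15 loops.

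The 4 genes without loops differed in how far the nearest loop lay. MCM2, on chromosome 3 (127598411 to 127622436), was 10.5 kb from the nearest listed end, at PODXL2, a sialomucin gene, and 115 not conserved loops had an end within 100 kb of it. MCM10, on chromosome 10 (13161558 to 13211110), was 62.6 kb from the nearest, in CCDC3, with 31 such loops. GMNN, on chromosome 6 (24774937 to 24786099), was 68.8 kb from a loop that joined KIAA0319 to ACOT13 and C6orf62, with 9. MCM4, on chromosome 8 (47960941 to 47978160), was 139 kb from the nearest end and had none within 100 kb. These neighbours were chosen by distance after the values were seen. Ends of 10 kb, or 5 kb added to both sides of the gene, left these 4 genes at 0 loops.

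Gained loops came nearest to MCM3, at 17.9 kb, and MCM2, at 28.8 kb. MCM2 had 9 gained loops within 100 kb, 160 to 275 kb long, in 3 groups of neighbours. Of these, 5 had an end at MGLL, the monoacylglycerol lipase gene, and 2 each at PODXL2, ABTB1 and KBTBD12, and none enclosed MCM2. A gained end lay within 100 kb of MCM2, MCM3 and MCM6, 3 of 9 genes against 21.2% of protein-coding genes, and within 500 kb of 7 of 9 against 45.4%. Neither share was tested. MCM5 had 90 gained loops with an end within 500 kb, in only 4 groups of neighbours. All were short loops of 9.19 to 104 kb on its low-coordinate side, the nearest 397 kb away and none at a protein-coding gene. MCM4 had 3 gained loops within 500 kb, of 517 to 762 kb, the nearest 198 kb away. At MCM7 (384 kb, a loop from NYAP1) and CDT1 (440 kb, a loop to SPG7) a single gained loop lay within 500 kb. MCM10 and GMNN had none, and their nearest were 6740 and 2400 kb away. No gene had a lost end within 1 Mb. The nearest were 1450 kb from MCM7 and 1680 kb from MCM5, whereas 3.71% of protein-coding genes had a lost end within 100 kb and 9.31% within 500 kb.

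**Figure D4:**
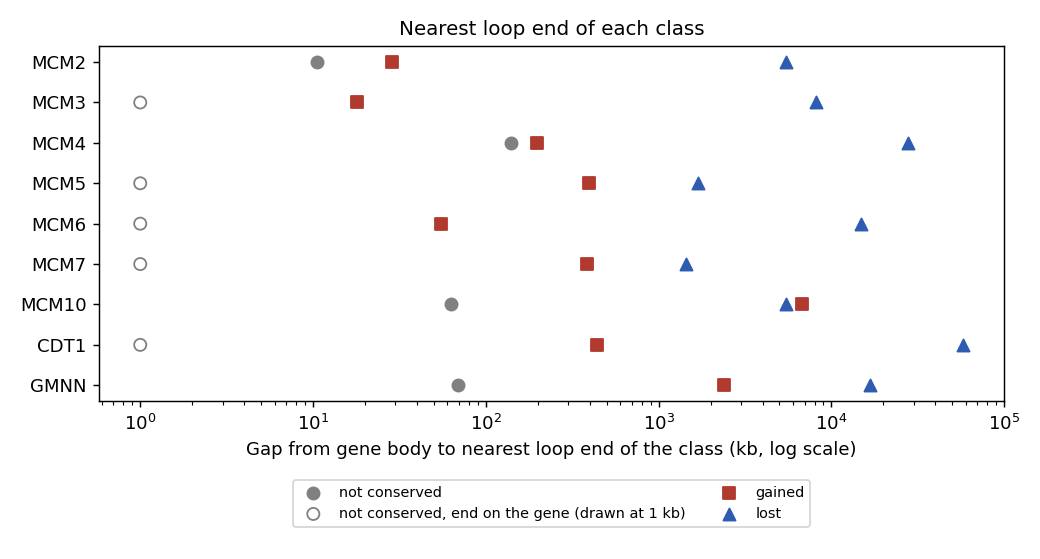
Gap in kb (log axis) from each gene body to the nearest end of a not conserved, gained or lost loop. Open circles mark genes with a loop end on the body and are drawn at 1 kb because a gap of 0 has no logarithm. Gained ends lie between 17.9 kb (MCM3) and 6740 kb (MCM10), and every lost end is at least 1450 kb away.

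Other genes of helicase loading and its control were read from 6 lists with 38 genes. Of these 16 had a listed end, 4 a gained end and 0 a lost end, against 49.6%, 6.31% and 0.916% of all protein-coding genes. In the list of CDT1 turnover 6 of 10 genes had listed ends and 3 had gained ones. This share was not tested, and the lists were chosen with earlier results of these data known. It was not matched for number of loops, of which the median gene with a listed end had 15. DTL, the substrate receptor through which the CUL4-DDB1 ligase marks CDT1 for destruction, had 16 gained of 149 listed loops, 192 to 366 kb long, 13 of them with an end at PPP2R5A, a phosphatase subunit gene. FBXO31, an F-box protein gene, had 14 gained of 21, of 241 to 269 kb and in 1 region, all with an end at JPH3, a junctophilin gene. CUL4B on chromosome X had 1 gained loop of 129 kb, the only listed loop with an end on it. SKP1 (26 loops), PCNA (18) and RBX1 (2) had neither gained nor lost ends, and CUL4A, DDB1, SKP2 and CUL1 had no listed end.

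Among partners of the helicase, CDC45 had 12 loops, none gained or lost, and GINS1 had 1 gained of 4, a loop of 422 kb to APMAP. GINS2, GINS3 and GINS4 had no listed end. In the list of the origin recognition complex and loading 5 of 8 genes had listed ends (ORC1, ORC2, ORC4, CDC6 and KAT7) and none was gained or lost. KAT7, a histone acetyltransferase gene, was spanned by 23 loops, of which 6, of 289 to 308 kb, were gained. Of 7 genes for kinases that act on the helicase and their cyclins, CDC7 had 65 loops and DBF4B had 1, none gained or lost. MCM8, with 18 loops, was the one gene of 6 MCM relatives and binding proteins with a listed end, and the geminin relatives GMNC and MCIDAS had none.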

How the data were processed

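Hi-C was performed with DpnII digestion and biotin fill-in, per the labels' protocols. The authors deposited a list of loop positions in bp with a class word, in hg38 per the file name. The submitters' processing notes name Bowtie, hg19 and hg38 without roles; the caller of the loops, any normalisation and all thresholds were not given in the sources used here. From 279669 lines, 49 without a class word and 2 repeats were left out. Positions were read as counted from 1. A deposited compartment table was not used, because its 6 columns of per-sample values (S1, S2, S3) match no label.

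Overlaps with RefSeq gene bodies (GRCh38.p14) were counted in Python 3.11.15 with pandas 2.3.3. The annotation used gives no exons, so exon, intron and UTR positions of loop ends were not determined. The counting step was checked on simulated loops. Up to 5 partner genes were named per member (CTU2 and the 7SK pseudogene in addition). Members and lists were chosen with earlier results of these data known. Limits for a count of 0 use 3 counts and cover counting error only. Some loops near MCM6 are not reported here.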

Additional observations from a re-analysis of the deposited data

How the results depend on the processing

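Alternatives changed the width of loop ends, the gene bounds, the loop lengths admitted, the joining of neighbours and the genes used as background. Of 65 alternative values 55 stayed within 1.5 times a count, or inside the 95% interval of a median or share. Some of the 55 could not move, so the tally does not measure stability. No loop at these genes was over 1 Mb, and none with an end on MCM3, MCM5 or MCM6 was under 100 kb. Narrower ends or fewer loops could not raise a count of 0. Loops with an end on the 9 genes numbered 110 to 169 against 135, spanning loops 323 to 352 against 327, and the number of genes with a gained or lost end stayed at 0 under the 2 alternatives run for it. The share of genes with a listed end was 51.0% on autosomes only and 32.7% over all annotated genes, over which the gained share was 3.45% and the lost share 0.489%. The other 6 values that moved were single counts at MCM7 and CDT1. MCM7 was spanned by 10 loops in place of 3 when loops with an end on it were admitted, and by 0 without loops under 100 kb. The remaining ones are given with those genes. The alternative for compartment scores was not run, because no label ties the columns to samples. No paired analysis was possible because the genotypes have a single library apiece and loops are listed without values per library. The effect of depth, which is unknown, was not examined.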
